A study of Mus musculus with 6 samples.

Results

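The SLC25 family, solute carriers that mostly lie in the inner membrane of mitochondria, was described in mouse hearts across 3 treatment groups. Members were the genes whose symbol is Slc25a followed by a number, with 1 row kept per symbol, and 43 of the 26835 genes in the table met this rule. Of these, 33 had a mean of at least 1 FPKM (fragments scaled by transcript length and library size) over the 6 libraries and were tested, and 10 lay below it. Genes of the family known by other symbols, such as the uncoupling proteins, were treated as a partner list.

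Polyadenylated RNA was sequenced from hearts of wild-type C57BL/6 mice, 7 to 8 weeks old and of 20 g body weight, give or take 2 g. The control group received 10% DMSO by intraperitoneal injection, the CFZ group received carfilzomib at 8 mg/kg, and the CFZ_EA group received carfilzomib at 8 mg/kg with electroacupuncture, a current passed through needles, at the acupoint PC6. Carfilzomib is an irreversible proteasome inhibitor used against multiple myeloma that can harm the heart, and the comparisons ask how it alters cardiac expression and how electroacupuncture alters expression under it. There were 2 libraries in each group, the labels list days 0, 2, 4 and 6 for each of them without tying a day to an event. Separate mice are not stated for the libraries of a group, and p-values therefore reflect only their spread, which may be technical.

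Carriers of this family exchange nucleotides, phosphate, keto acids, amino acids, acylcarnitines and cofactors between cytosol and mitochondrial matrix. They are built from repeats of a pair of membrane helices, and those of the inner membrane are inserted by the TIM22 complex. Slc25a17 of peroxisomes and Slc25a46 of the outer membrane lie elsewhere. In heart muscle the adenine nucleotide carriers send ATP out to the contractile machinery and bring ADP back, the phosphate carrier supplies the ATP synthase, and the aspartate/glutamate and oxoglutarate carriers form the malate-aspartate shuttle.

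The libraries held 50013990 to 75742448 estimated counts, and the mitochondrially encoded genes took 14.8% to 21.3% of them. Both values were lowest in control replicate 2, and the next lowest mitochondrial share was 17.9% in CFZ replicate 1. All 8 genes listed for ventricular cardiomyocytes (Myl2, Myl3, Myh6, Tnni3, Tnnt2, Actc1, Pln and Irx4) were present, with a summed level of 21980 to 26500 FPKM. Whether they are specific to the ventricle was not tested. Control replicate 2 stood apart, with a score of 48.6 on a first principal component holding 36.4% of the variance in log2 CPM (counts scaled by library size), while the other libraries lay from -23.2 to 0.64. The 8 fibroblast markers summed to 1044 FPKM in that library and 124 to 199 FPKM in the others, and the 7 macrophage markers to 838 and 215 to 287 FPKM. The 10 atrial markers summed to 350 to 461 FPKM in CFZ, 1853 and 3035 FPKM in control, 1126 FPKM in CFZ_EA replicate 1 and 5933 FPKM in CFZ_EA replicate 2. Erythroid markers summed to 4962 and 5666 FPKM in control and 2466 to 3470 FPKM elsewhere, endothelial markers to 216 to 294, smooth muscle markers to 78.4 to 241, epicardial markers to 3.96 to 54.0 and adipocyte markers to 34.0 to 44.2 FPKM. The skeletal muscle markers summed to 1090 to 1447 FPKM, most of it from Ckm, which heart muscle also expresses, and Myh1 was listed at 0 in 5 of 6 libraries. In bulk samples, fewer cells of a type and less RNA per cell cannot be told apart.

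The adenine nucleotide carriers spanned the full range of levels in the family. Sequences at their RefSeq starts are shown because the genes encode close relatives and differ widely in level here. Slc25a4, the carrier of heart and skeletal muscle (ENSMUSG00000031633, chromosome 8, 46206797 to 46211284, GRCm38), averaged 2066 FPKM over the 6 libraries. Slc25a5, the more widely expressed relative (ENSMUSG00000016319, chromosome X, 36795651 to 36798807), averaged 175 FPKM, and Slc25a31, the germ cell form (ENSMUSG00000069041, chromosome 3, 40708855 to 40726096), averaged 0.0269 FPKM. The 250 bases before each RefSeq transcription start, 5′ to 3′ on the gene's strand, come from the RefSeq promoter table on GRCm38.p6. The gene bounds above come from the deposited table and differ from RefSeq's, so 222 bases of the Slc25a4 window and 16 of the Slc25a31 window lie inside them. The windows are chr8:46211063-46211312 on the minus strand, chrX:36795347-36795596 on the plus strand and chr3:40708621-40708870 on the plus strand. Capitals mark matches, on either strand, to the CCAAT box (CCAAT), the GC box (GGGCGG) and the E2F core (TCCCGC).
Slc25a4: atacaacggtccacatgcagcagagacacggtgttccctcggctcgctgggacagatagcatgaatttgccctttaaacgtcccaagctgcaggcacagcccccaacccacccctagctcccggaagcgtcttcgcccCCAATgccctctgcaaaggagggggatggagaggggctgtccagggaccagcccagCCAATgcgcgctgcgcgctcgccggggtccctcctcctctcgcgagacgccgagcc
Slc25a5: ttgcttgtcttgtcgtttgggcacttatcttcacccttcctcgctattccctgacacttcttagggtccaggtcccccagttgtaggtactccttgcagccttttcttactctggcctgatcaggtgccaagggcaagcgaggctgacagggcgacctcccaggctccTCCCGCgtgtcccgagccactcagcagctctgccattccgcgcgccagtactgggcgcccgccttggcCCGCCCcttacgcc
Slc25a31: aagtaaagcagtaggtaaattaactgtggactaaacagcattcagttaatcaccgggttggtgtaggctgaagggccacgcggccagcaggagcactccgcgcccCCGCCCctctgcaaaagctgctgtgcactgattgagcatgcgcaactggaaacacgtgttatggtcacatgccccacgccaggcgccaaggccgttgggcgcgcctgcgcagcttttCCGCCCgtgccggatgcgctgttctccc
The Slc25a4 window held 2 CCAAT boxes and 0 GC boxes, the Slc25a5 window 1 GC box and 1 E2F core, and the Slc25a31 window 2 GC boxes. None of the 3 windows held a TATA box (TATAAA) or the estrogen-related receptor core (AAGGTCA). Their GC content was 64.8%, 61.6% and 59.6%, against a median of 52.4% over the 32851 windows in the table, which also cover non-coding genes. A window was given for 33 of the 43 members, all protein-coding, 42 windows in all. Their median GC content was 57.8%, and they held a median of 12 CG pairs (C followed by G), against 6 over all windows. A GC box stood in 73.8% of the members' windows, against 32.7% of all windows. The part of base content and gene type in this and the next shares was not tested. The CCAAT box stood in 47.6% of the members' windows and 33.9% of all windows, the E2F core in 19.0% and 16.9%, the TATA box in 2.38% and 12.4%, and the estrogen-related receptor core in 2.38% and 4.08%. A match is a run of letters and not a shown binding site.

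The highest tested member stood at 1999.6 times the mean level of the lowest. By mean level 4 members were at or above 100 FPKM, 8 between 10 and 100, 21 between 1 and 10, and 10 below 1. Slc25a4 was the highest member in 6 of 6 libraries and gave 64.0% to 66.3% of the summed FPKM of the family. Together with the phosphate carrier Slc25a3, the oxoglutarate/malate carrier Slc25a11 and Slc25a5 it gave 88.4% to 89.5%. Across the 43 members, Spearman's rho between any 2 libraries ran from 0.972 to 0.996, a description over genes that share each library's depth. The order was sharp only in places, since the ranges over 6 libraries were separate for 11 of the 42 pairs of neighbours. Slc25a3 and Slc25a11 overlapped in range, while in the run Slc25a11, Slc25a5, Slc25a34, Slc25a20, Slc25a39, Slc25a12, Slc25a13 and Slc25a42 each member lay clear of the next.

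**Figure D1:**
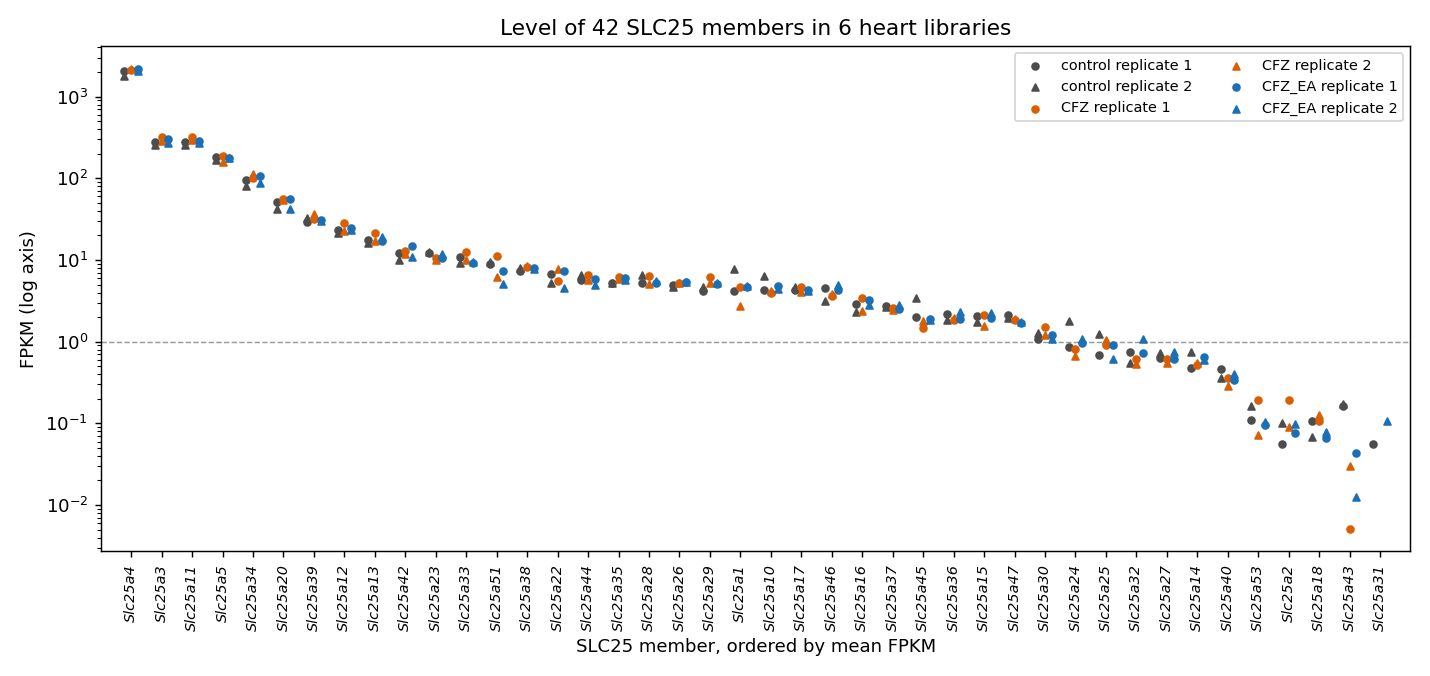
FPKM on a log axis of 42 members in each of 6 libraries, ordered by mean FPKM, with circles for replicate 1, triangles for replicate 2 and a dashed line at 1 FPKM, the minimum mean for testing. The points of most members above the line lie close together, and 4 values of 0 for Slc25a31 are not drawn.

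No member passed the test in any comparison. In CFZ against control, 0 of 33 tested members were called by edgeR's quasi-likelihood test at an adjusted p under 0.05, where 0.029% of all 10329 genes tested were called, and 1 member had an unadjusted p under 0.05, against 7.72% of all genes. In CFZ_EA against CFZ, 0 were called (0.0194% of all genes) and 0 had an unadjusted p under 0.05 (3.09% of all genes). In CFZ_EA against control, 0 were called (0% of all genes) and 0 had an unadjusted p under 0.05 (5.13% of all genes). DESeq2 called 0 members in each comparison as well, where it called 1.34%, 0.532% and 0.494% of all genes, and at an unadjusted p under 0.05 it had 2, 0 and 0 members, against 10.2%, 4.1% and 7.41% of all genes. The 95% interval of the log2 fold change lay within a 2-fold change in either direction for 30, 30 and 29 of the 33 members, and within 1.5-fold for 16, 18 and 17. A p that misses the threshold does not show that levels were equal, and these intervals give the size of change left possible.

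The family's centre in CFZ lay slightly above control and depended on control replicate 2. Of the 33 members 22 had a higher estimate in CFZ and 11 a lower one, with a median log2 fold change of 0.16, against -0.0034 over all genes tested, of which 49.5% were higher. Without control replicate 2 the median was 0.016 and 18 members were higher. Scaled by library totals alone, 17 members were higher and 16 lower, with a median of 0.11. This scaling lowered all genes alike (median -0.061, with 4077 of 10329 higher). Counts of higher and lower members follow the estimates. FPKM lack the main fit's factors between libraries, so small estimates can differ in sign from FPKM means. Slc25a44, for example, had an estimate of 0.052 in CFZ, with FPKM means of 6.08 in control and 6.07 in CFZ. The ventricular cardiomyocyte list had 8 of 8 genes higher in CFZ, with a median of 0.20, and 0.10 without control replicate 2. The part of this list in the members' median was not tested. For CFZ_EA against control the median was 0.11 with 22 members higher (all genes -0.0013), 0.031 without control replicate 2 and 0.26 without control replicate 1. By library totals it was 0.043 with 18 members higher, and the median of all genes was -0.070 with 3782 of 10329 higher. For CFZ_EA against CFZ the median was -0.034 with 14 members higher and 19 lower (all genes -0.0084), and it was 0.0095 without CFZ replicate 1 and 0.010 without CFZ replicate 2. CFZ and control libraries each enter 2 of these comparisons, so the comparisons are not independent of each other.

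Most members were lower in control replicate 2 than in control replicate 1. In control, 24 of 33 members were lower in replicate 2 than in replicate 1, with a median difference of -0.23 on the log2 CPM scale, whereas 48.6% of all genes were lower and their median difference was 0.011. In CFZ 18 members were lower in replicate 2 and the median difference was -0.019, and in CFZ_EA the values were 17 and -0.014. Among the 22 members with a higher estimate in CFZ, 17 were lower in control replicate 2 than in control replicate 1. Of the 11 with a lower estimate, 4 were higher in control replicate 2. That library is part of the control mean behind each estimate, so these counts are not independent of the estimates. The fibroblast and macrophage markers were high in this library, opposite to most members, and their part in these values was not tested.

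**Figure D2:**
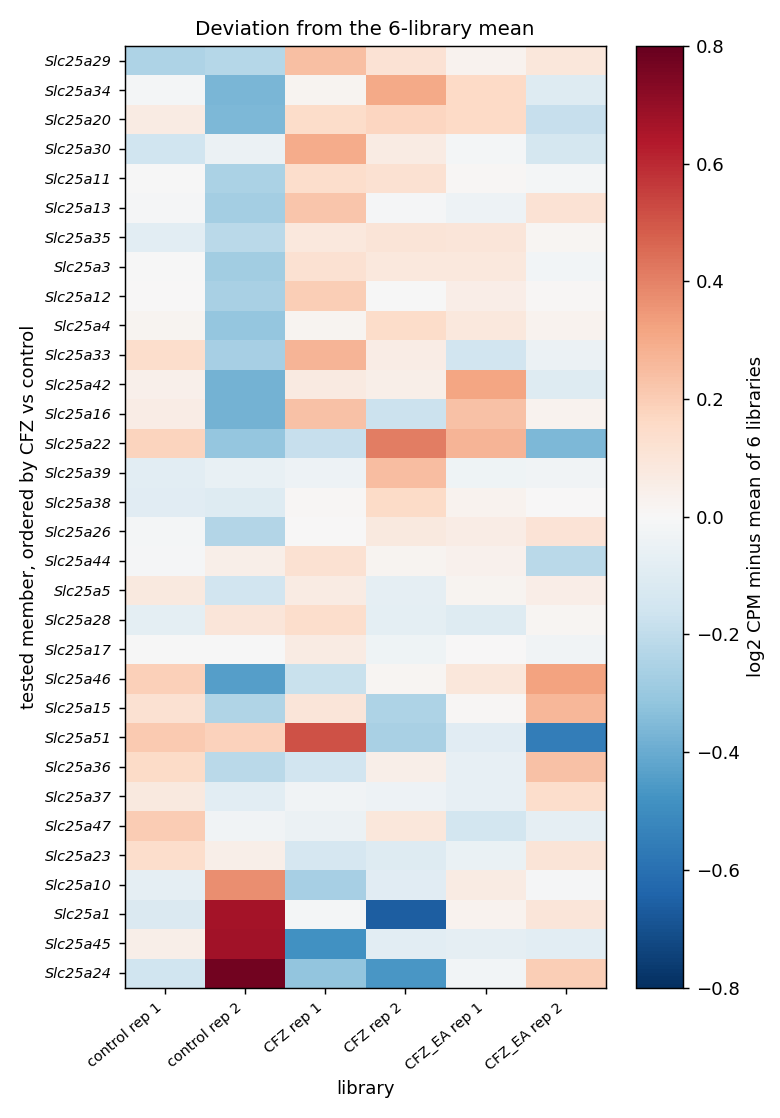
Log2 CPM of 32 tested members in each library minus the member's mean over 6 libraries, ordered from the highest to the lowest log2 fold change of CFZ against control. Control replicate 2 is below the mean in most rows and above it in the bottom 4 rows (Slc25a10, Slc25a1, Slc25a45 and Slc25a24), and Slc25a51 and Slc25a22 differ between replicates.

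No carrier of ADP and ATP or of phosphate passed the test. Slc25a4 measured 2058 and 1793 FPKM in control, against 2147 and 2186 in CFZ and 2169 and 2045 in CFZ_EA. Control replicate 2 was its lowest library, and CFZ and control did not overlap. Its log2 fold change in CFZ was 0.22 ± 0.19 (SE; edgeR adjusted p = 0.773), with 0.061 without control replicate 2 and 0.40 without control replicate 1. Slc25a5 measured 182 and 169.6 FPKM in control, against 188 and 159 in CFZ and 177 and 176 in CFZ_EA, so the groups overlapped, and its log2 fold change in CFZ was 0.033 ± 0.13, and -0.083 without control replicate 2. The ratio of Slc25a4 to Slc25a5 was 11.3 and 10.6 in control, 11.4 and 13.7 in CFZ, and 12.2 and 11.6 in CFZ_EA. Both control values lay below all values of CFZ and CFZ_EA, though 11.3 was close to the lower CFZ value. The CFZ replicates differed the most from each other, and the ratio was not tested. Slc25a5 has a transcribed pseudogene and close relatives, and reads could be split between them by the counting.

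Slc25a31 had counts of 8 and 0 in control, 0 and 0 in CFZ, and 0 and 19 in CFZ_EA. A count of 0 allows up to 3 counts, which is 0.0396 to 0.0600 CPM depending on the library. The phosphate carrier Slc25a3 (ENSMUSG00000061904, chromosome 10, 91116574 to 91124059), which feeds the ATP synthase, measured 281 and 254 FPKM in control, against 319 and 290.3 in CFZ and 302 and 274 in CFZ_EA. Both CFZ libraries were above both control libraries, and the log2 fold change was 0.24 ± 0.15 with all libraries and 0.10 without control replicate 2. The table sums the isoforms of this gene, which differ between heart and other tissues, so they were not resolved.

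Of the carriers of aspartate, glutamate and di- or tricarboxylates, 7 had a row and 6 were tested, with 4 higher and 2 lower in CFZ (median 0.21, and 0.029 without control replicate 2). The oxoglutarate/malate carrier Slc25a11 measured 279 and 257 FPKM in control, against 322 and 296 in CFZ and 286 and 274 in CFZ_EA. Its CFZ libraries were the highest of the 6, the log2 fold change reached 0.26 ± 0.13 in CFZ (edgeR adjusted p = 0.679) and 0.13 without control replicate 2. The calcium-regulated aspartate/glutamate carriers Slc25a12 and Slc25a13, partners in the malate-aspartate shuttle, were both well expressed. Slc25a12 measured 23.6 and 21.5 FPKM in control, against 28.2 and 22.8 in CFZ and 24.7 and 23.4 in CFZ_EA. Slc25a13, which is the form of liver, measured 17.5 and 16.0 FPKM in control, against 21.4 and 17.0 in CFZ and 17.3 and 18.9 in CFZ_EA. The ratio of Slc25a12 to Slc25a13 lay between 1.24 and 1.43 in the 6 libraries. For both genes the groups overlapped, and CFZ replicate 1 was the highest library.

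Slc25a1, the citrate carrier that exports citrate for lipid synthesis (ENSMUSG00000003528, chromosome 16, 17925223 to 17928219), measured 4.15 and 7.81 FPKM in control, against 4.64 and 2.75 in CFZ and 4.65 and 4.76 in CFZ_EA. Its highest value was in control replicate 2 and its lowest in CFZ replicate 2, and CFZ overlapped control. The log2 fold change in CFZ was -0.63 ± 0.33 (edgeR adjusted p = 0.679), and it was -0.19 when control replicate 2 was left out and -0.96 when control replicate 1 was. The dicarboxylate carrier Slc25a10 averaged 5.36 ± 1.4999 FPKM (SD, n = 2) in control, 4.03 ± 0.144 in CFZ and 4.62 ± 0.235 in CFZ_EA, and its log2 fold change in CFZ was -0.34 ± 0.19, which became -0.10 once control replicate 2 was dropped and -0.54 once control replicate 1 was. The glutamate carrier Slc25a22 averaged 6.03 ± 1.05 FPKM in control, 6.62 ± 1.60 in CFZ and 5.96 ± 1.92 in CFZ_EA. Its relative Slc25a18 had 8 to 17 counts per library.

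Among carriers of carnitine and amino acids, 8 had a row and 7 were tested, with 4 higher and 3 lower in CFZ (median 0.052). Slc25a20, the carnitine/acylcarnitine carrier of fatty acid oxidation (ENSMUSG00000032602, chromosome 9, 108662088 to 108684641), measured 51.2 and 41.9 FPKM in control, against 56.5 and 53.7 in CFZ and 55.5 and 42.6 in CFZ_EA. Its log2 fold change in CFZ was 0.29 ± 0.19, and 0.092 without control replicate 2, with the lowest values in control replicate 2 and CFZ_EA replicate 2. The carrier of basic amino acids Slc25a29 (ENSMUSG00000021265, chromosome 12, 108825873 to 108835883) was the member with the smallest p in CFZ. It measured 4.17 and 4.64 FPKM in control, against 6.12 and 5.24 in CFZ and 5.11 and 5.22 in CFZ_EA. Both control libraries were below the other 4. The log2 fold change was 0.42 ± 0.14 in CFZ (edgeR adjusted p = 0.608, 95% interval 0.075 to 0.76) and 0.30 ± 0.14 in CFZ_EA against control (edgeR adjusted p = 0.848). With 1 library left out it ran from 0.36 to 0.48 in CFZ, and it was 0.43 without control replicate 2, so its size did not rest on that library. It ranked 395 of the 10329 genes by p. Its unadjusted edgeR p was under 0.05 in the main fit but not when scaled by library totals alone. By limma on log2 FPKM it was not under 0.05 either.

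Slc25a45 (ENSMUSG00000024818, chromosome 19, 5877808 to 5885766) measured 2.03 and 3.43 FPKM in control, against 1.46 and 1.79 in CFZ and 1.88 and 1.83 in CFZ_EA. Both control libraries lay above the other 4, and control replicate 2 lay far above control replicate 1. The log2 fold change in CFZ was -0.67 ± 0.28 (edgeR adjusted p = 0.647), and leaving out control replicate 2 gave -0.32 while leaving out control replicate 1 gave -0.94. The glycine carrier Slc25a38, needed for haem synthesis, averaged 7.64 ± 0.424 FPKM in control, 8.32 ± 0.187 in CFZ and 7.88 ± 0.206 in CFZ_EA. The ornithine carrier Slc25a15 averaged 1.91, 1.84 and 2.10 FPKM in the same order, the branched-chain amino acid carrier Slc25a44 6.08, 6.07 and 5.40 FPKM, and Slc25a47 2.04, 1.88 and 1.70 FPKM. Slc25a2, an ornithine carrier with 5 to 19 counts per library, was not tested.

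**Figure D3:**
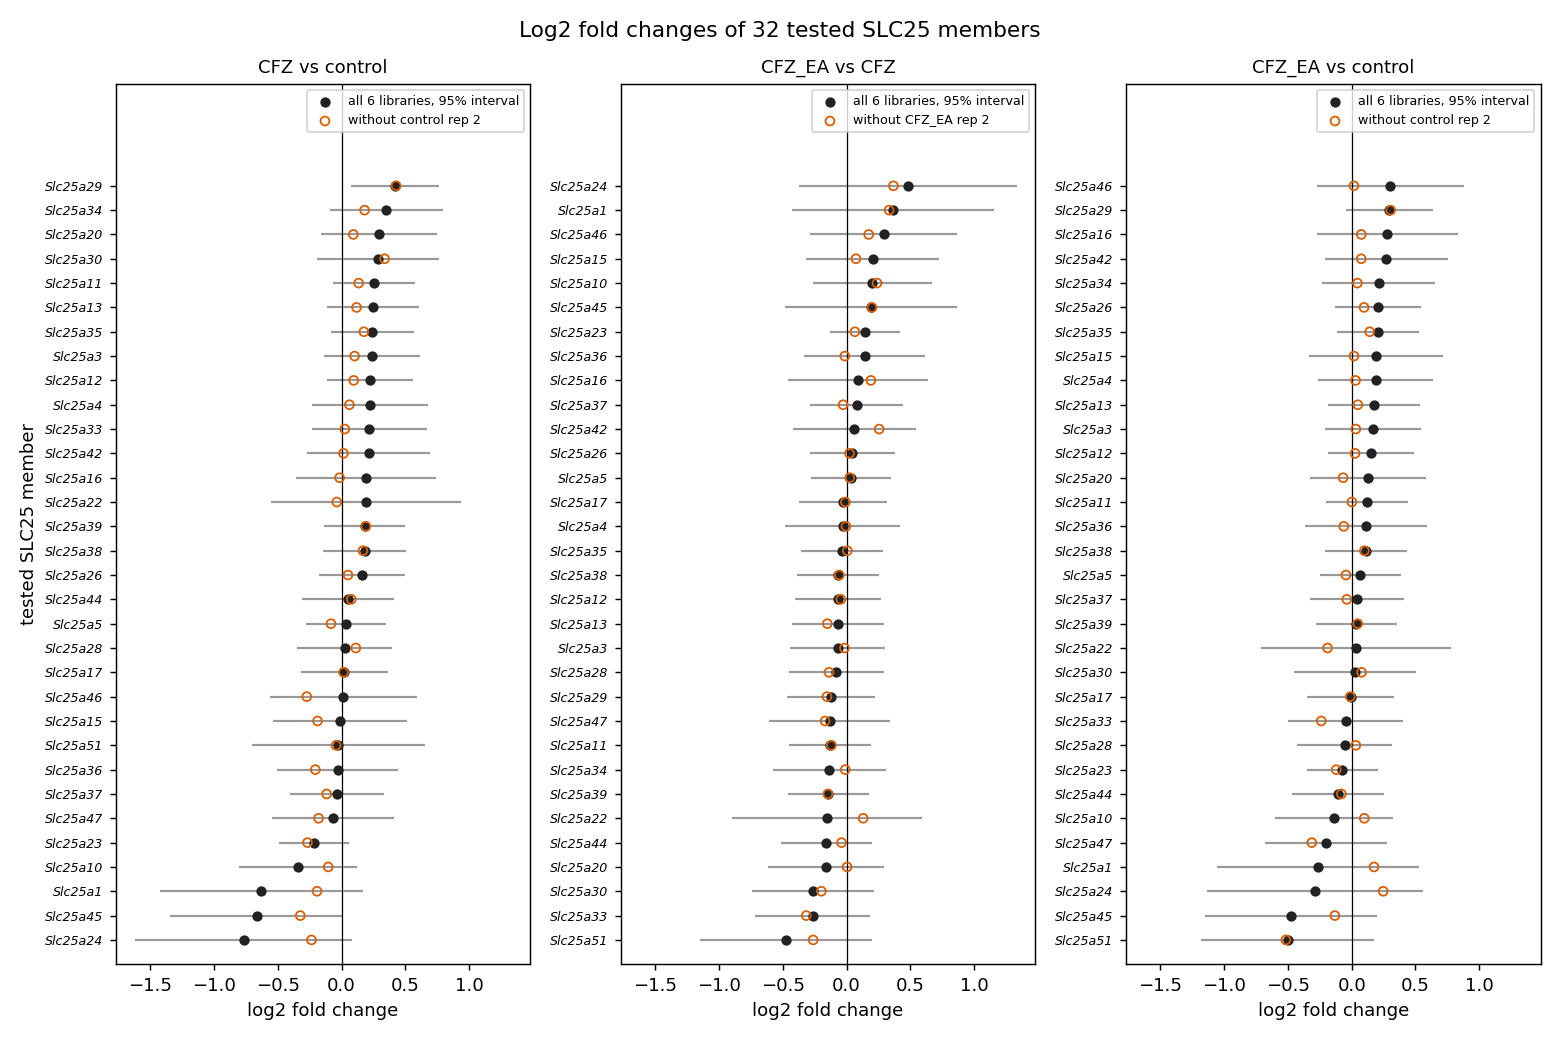
Log2 fold change of 32 tested members in the 3 comparisons, as filled points with 95% intervals from all 6 libraries and as open circles without control replicate 2 (CFZ_EA replicate 2 in the middle panel). Intervals cross 0 for every member drawn but Slc25a29 in CFZ against control, and the open circles of most higher members in that panel lie nearer 0.

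Carriers of nucleotides, coenzyme A and NAD had 9 rows, of which 8 were tested, with 4 higher and 4 lower in CFZ (median -0.0018, and -0.029 without control replicate 2). Slc25a24, a calcium-regulated ATP-Mg/phosphate carrier (ENSMUSG00000040322, chromosome 3, 109123149 to 109168457), had the lowest estimate in CFZ among the 33 tested members. It measured 0.861 and 1.80 FPKM in control, against 0.808 and 0.678 in CFZ and 0.960 and 1.09 in CFZ_EA, and its mean of 1.03 FPKM passed the filter through control replicate 2. The log2 fold change in CFZ was -0.77 ± 0.35 (edgeR adjusted p = 0.656), -0.24 without control replicate 2 and -1.16 without control replicate 1, and for CFZ_EA against CFZ it was 0.48 ± 0.35. Its relative Slc25a23 measured 12.2 and 12.5 FPKM in control, against 10.4 and 9.98 in CFZ and 10.7 and 11.7 in CFZ_EA. Both control libraries were the highest for Slc25a23, with a log2 fold change of -0.22 ± 0.11 in CFZ (edgeR adjusted p = 0.682) and -0.27 without control replicate 2. Slc25a25, the third of these relatives, averaged 0.901 FPKM and lay just below the filter.

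Slc25a51, the NAD carrier (ENSMUSG00000045973, chromosome 4, 45395923 to 45408766), measured 8.85 and 9.51 FPKM in control, against 11.3 and 6.20 in CFZ and 7.27 and 5.15 in CFZ_EA. Both CFZ_EA libraries were below both control libraries, and the CFZ libraries were the highest and the second lowest of the 6. The log2 fold change was -0.48 ± 0.28 in CFZ_EA against CFZ (edgeR adjusted p = 0.9997) and -0.50 ± 0.28 in CFZ_EA against control (edgeR adjusted p = 0.848), and the first was -0.041 without CFZ replicate 1 and -0.81 without CFZ replicate 2. The coenzyme A carrier Slc25a42 measured 12.3 and 10.0 FPKM in control, against 13.1 and 11.98 in CFZ and 15.0 and 10.9 in CFZ_EA. Slc25a33, a pyrimidine nucleotide carrier, measured 10.96 and 9.08 FPKM in control, against 12.5 and 10.1 in CFZ and 9.08 and 9.54 in CFZ_EA. Its log2 fold change in CFZ_EA against CFZ was -0.26 ± 0.18, and it ran from -0.36 to -0.15 with 1 library left out. The other pyrimidine carrier Slc25a36 averaged 2.02, 1.91 and 2.09 FPKM in control, CFZ and CFZ_EA, the peroxisomal carrier Slc25a17 4.48, 4.37 and 4.25 FPKM, and Slc25a16 2.59, 2.88 and 3.03 FPKM.

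Iron, glutathione and cofactor carriers had 7 rows and 5 tested members, with 3 higher and 2 lower in CFZ (median 0.026, and 0.050 without control replicate 2). The iron importers of mitochondria differed little between libraries: Slc25a37, mitoferrin 1 of red cell precursors, measured 2.70 and 2.65 FPKM in control, against 2.62 and 2.42 in CFZ and 2.48 and 2.79 in CFZ_EA. Slc25a28, the widely expressed mitoferrin 2, averaged 5.86 ± 0.871 FPKM in control, 5.73 ± 0.897 in CFZ and 5.37 ± 0.222 in CFZ_EA, and was 1.94 to 2.44 times the level of Slc25a37. Erythroid markers were lower in CFZ for 5 of 5 tested members, with a median log2 fold change of -0.77, and the log2 fold change of Slc25a37 was -0.036 ± 0.15, and -0.12 without control replicate 2. The glutathione carrier Slc25a39 measured 29.5 and 32.9 FPKM in control, against 31.6 and 36.1 in CFZ and 30.8 and 30.3 in CFZ_EA, and its relative Slc25a40 averaged 0.368 FPKM.

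The S-adenosylmethionine carrier Slc25a26 measured 5.01 and 4.70 FPKM in control, against 5.29 and 5.19 in CFZ and 5.34 and 5.40 in CFZ_EA, with both control libraries lowest. Slc25a32, a folate and flavin carrier below the filter, averaged 0.643 ± 0.138, 0.574 ± 0.0598 and 0.911 ± 0.245 FPKM in the 3 groups.

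**Figure D4:**
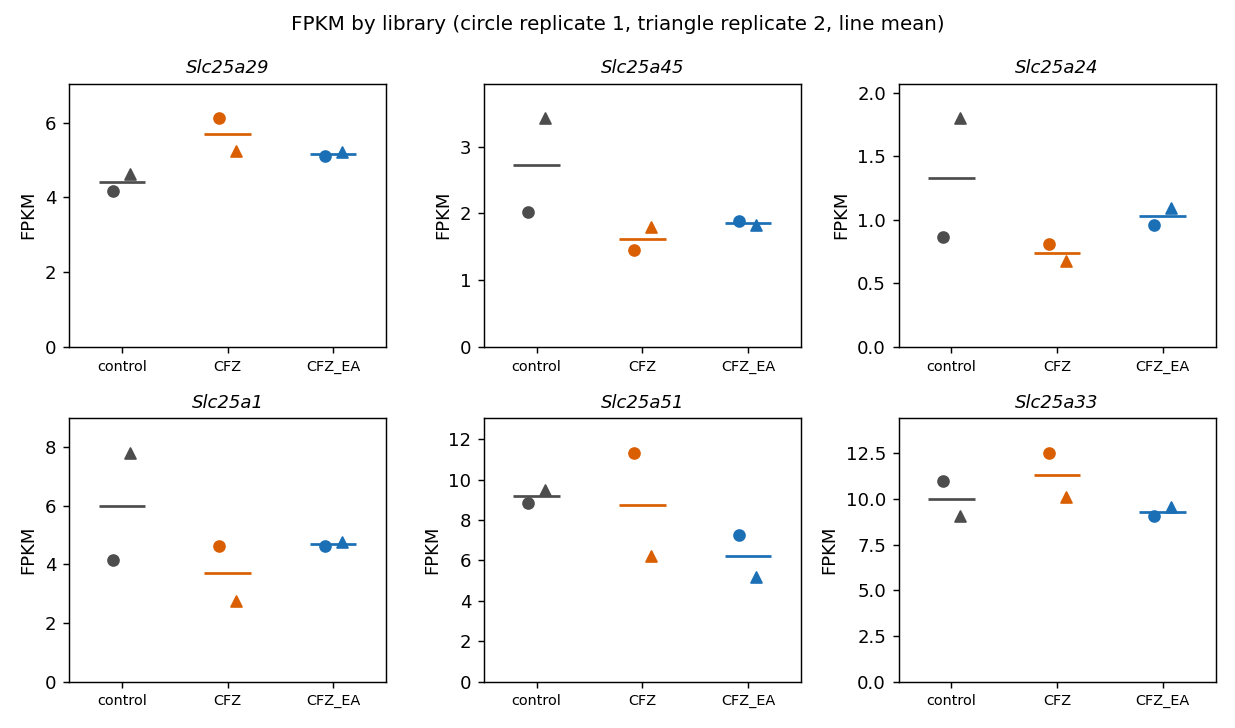
FPKM in each library (circles replicate 1, triangles replicate 2) and the group mean (line) of 6 members. Each was among the 6 members with the smallest unadjusted edgeR p in at least 1 comparison, and none passed the test. Control replicate 2 is the highest library for Slc25a45, Slc25a24 and Slc25a1, the CFZ libraries of Slc25a51 are 11.3 and 6.20 FPKM, and both CFZ_EA libraries of Slc25a33 are below both CFZ libraries.

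Slc25a34, a carrier whose substrate is less well characterised (ENSMUSG00000040740, chromosome 4, 141618824 to 141623821), was the fifth most abundant member. It measured 94.1 and 80.8 FPKM in control, against 100.5 and 114 in CFZ and 107 and 87.5 in CFZ_EA. CFZ and control did not overlap, and the log2 fold change was 0.35 ± 0.18 (edgeR adjusted p = 0.680) and 0.18 without control replicate 2. Its relative Slc25a35 measured 5.29 and 5.30 FPKM in control, against 6.21 and 5.85 in CFZ and 6.08 and 5.62 in CFZ_EA, with a log2 fold change in CFZ of 0.24 ± 0.13. Exons of Slc25a35 share 1151 bases with Rangrf on the opposite strand, and whether the counting used strand is not given in the sources used here. Slc25a46, an outer membrane protein of mitochondrial dynamics, averaged 3.85 ± 0.939, 3.76 ± 0.171 and 4.57 ± 0.433 FPKM in control, CFZ and CFZ_EA. Of the uncoupling-protein-like members, Slc25a30 measured 1.07 and 1.26 FPKM in control, against 1.53 and 1.21 in CFZ and 1.198 and 1.07 in CFZ_EA, while Slc25a27 and Slc25a14 averaged 0.642 and 0.587 FPKM and were not tested.

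Below the filter, Slc25a43 (ENSMUSG00000037636, chromosome X, 36743659 to 36777202), a neighbour of Slc25a5, had 19 and 17 counts in control, 1 and 4 in CFZ, and 6 and 2 in CFZ_EA. Both control libraries were above the other 4. The gene was picked out after its values were seen. Over summed counts the level in control was 8.62 times that in CFZ (95% exact binomial interval 3.37 to 28.2, counting error only). Against CFZ_EA it was 5.92 times (2.71 to 14.8). These intervals treat each count as an independent read and leave out the spread between libraries, so they may be too narrow. With no filter, edgeR gave log2 fold changes of -2.91 ± 1.36 for CFZ and -2.39 ± 1.31 for CFZ_EA against control. The edgeR adjusted p was 0.804 and 0.892, so these differences did not pass. Slc25a53 had 42 to 111 counts per library.

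Counted by FPKM, the CFZ and control libraries did not overlap for 9 members that were above control and 6 that were below it, where 12.5% and 20.8% of all genes did so. The numbers were 8 and 7 in CFZ_EA against CFZ (15.1% and 17.7% of all genes) and 4 and 4 in CFZ_EA against control (10.5% and 22.1% of all genes). The spread between libraries was small for most members: the highest library was less than 1.5 times the lowest in 26 of the 33 tested members, and over 2 times in 4 (Slc25a1, Slc25a24, Slc25a45 and Slc25a51).

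Genes that work with the carriers gave 0 calls in each list and comparison by edgeR. Of all 10329 genes tested it called 0.029% in CFZ against control, 0.0194% in CFZ_EA against CFZ and 0% in CFZ_EA against control. Calls in lists this short would therefore be rare. In CFZ against control the 14 tested subunits of the ATP synthase, which uses the ADP and phosphate brought in, were all estimated higher. Their median log2 fold change was 0.20, and 0.096 with 11 higher without control replicate 2. In CFZ_EA against CFZ, which shares the CFZ libraries, the same 14 had a median of -0.12 and were all estimated lower. Without CFZ_EA replicate 2 that median was -0.15 with 2 higher. In CFZ_EA against control 10 of the 14 were higher, and 4 without control replicate 2. The subunit Atp5j2, named for its small p, measured 202 and 187 FPKM in control, against 244 and 274 in CFZ and 194 and 189 in CFZ_EA. The pyruvate carrier and outer membrane pores had 5 of 5 members higher in CFZ (median 0.23, and 0.13 without control replicate 2), with the pyruvate carrier subunit Mpc1 at 0.27 ± 0.14, and 0.14 without that library. Enzymes of the malate-aspartate and glycerophosphate shuttles had 6 of 7 higher (median 0.18, and 0.079 without control replicate 2), carnitine shuttle enzymes 5 of 5 (median 0.15 and 0.029), and creatine kinases with cyclophilin D 3 of 4 (median 0.12 and -0.011). The import machinery of the carriers had 8 of 10 members higher in CFZ (median 0.090, and 0.042 with 6 higher without control replicate 2) and 9 of 10 lower in CFZ_EA than in CFZ (median -0.14). In CFZ_EA against control the medians of these partner lists ran from -0.14 for the calcium uniporter to 0.12 for the creatine kinases, and without control replicate 2 these 2 lists had medians of 0.0023 and -0.059.

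Calcium uniporter genes had 3 of 7 tested members higher in CFZ (median -0.013, and -0.040 without control replicate 2). Mcub, the dominant-negative pore subunit, measured 1.83 and 7.10 FPKM in control, against 1.26 and 1.45 in CFZ and 1.32 and 1.28 in CFZ_EA, and its high value was in control replicate 2, where the fibroblast and macrophage markers were high. Iron-sulfur cluster and haem synthesis genes had 5 of 10 members higher (median 0.043, and -0.023 without control replicate 2), with the erythroid enzyme Alas2 at -0.84 ± 0.19. SLC25 genes under other symbols, of which Ucp2, Ucp3, Mtch1 and Mtch2 had rows, had 2 of 4 higher (median -0.10). Ucp2, an uncoupling protein abundant in immune cells, measured 11.3 and 16.3 FPKM in control, against 6.82 and 7.45 in CFZ and 4.44 and 10.8 in CFZ_EA, with a log2 fold change in CFZ of -0.89 ± 0.41 (edgeR adjusted p = 0.658).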

How the data were processed

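Gene expression was measured in 6 mouse heart libraries, 2 in each of 3 groups. Per the submitters' processing notes, the tools were StringTie 1.3.4d, HISAT2 2.0.4 and cutadapt 1.9, with GRCm38 as the build and no role given. Each library has an FPKM column and a column of estimated counts, both deposited by the authors and named per the file headers, and the counts were rounded. Multiples of 4 made up 42.2% to 43.3% of the values from 1 to 20 (25% if all these values were equally frequent), which leaves the number of reads per count uncertain. Intervals and floors reflect counting error alone, as PCR copies are not independent molecules.

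Genes with a mean of at least 1 FPKM (10329) were tested with edgeR's quasi-likelihood test across all genes, with TMM factors and group as the only term over 6 libraries, and calls were made below 0.05 after Benjamini-Hochberg adjustment. The same steps on simulated counts for 10329 genes recovered 28.4% of 2-fold and 94.0% of 4-fold changes for CFZ against control. They recovered 32.8% and 95.5% for CFZ_EA against CFZ, and 23.9% and 89.6% for CFZ_EA against control. False calls numbered 5, 7 and 10 in the same order. Changes were put only into genes above a minimum mean count, and no simulated library stood apart as control replicate 2 did. Recovery in the real data may therefore differ. With 2 libraries a group, the smallest p of a two-sided exact permutation test is 0.333, and such a test was left out. Intervals of log2 fold changes use the fit's standard error and degrees of freedom. Of 43 members, 36 had the coordinates of GENCODE M21, 2 share exon bases with another gene on the same strand and 11 with one on the opposite strand.

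The values of 1 tested member are not reported here, and it is left out of the figures but kept in the counts and medians. The members, the partner lists and the marker lists were chosen with earlier results of these data known. Values per library are given for the 12 most abundant members and the 6 with the smallest unadjusted p in each comparison, except that member, and from each partner list at most 2 members with the smallest p in each comparison are named. Slc25a43 and the likeness of Ucp3 to Slc25a22 were picked out after their values were seen. Alternatives covered scaling, filter, test, groups in the fit, a replicate block and left-out libraries. Software was DESeq2 1.42.0, edgeR 4.0.16 and limma 3.58.1 in R 4.3.3, with Python 3.11.15.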

Additional observations from a re-analysis of the deposited data

How the results depend on the processing

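In each of the 19 alternatives, in each of the 3 comparisons, 0 of the tested members were called. Estimates of the members with the 6 smallest p-values in each comparison kept their direction in every alternative. The median log2 fold change of the members with 1 library left out lay between 0.016 and 0.19 in CFZ against control, -0.048 and 0.010 in CFZ_EA against CFZ, and 0.031 and 0.26 in CFZ_EA against control. Without control replicate 2 and CFZ_EA replicate 2 together the first 2 were 0.016 and -0.0065. The cause was not tested. The other alternatives moved the medians by less than the spread between replicates (0.11, 0.025 and 0.11, as 1 SD), except where named.

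The number of genes called over the whole table was 3, 2 and 0 in the 3 comparisons. It was 138, 55 and 51 with DESeq2, 0, 3 and 0 with the compared groups alone, 1, 1 and 0 with rows of one symbol summed or with counts divided by 4 (added after seeing the data), and 32, 3 and 1 without control replicate 2 and CFZ_EA replicate 2 together. With 1 library left out the lowest and highest were 0 and 332 for the first comparison, 0 and 4 for the second and 0 and 231 for the third (332 and 231 without control replicate 1), where the group with 1 library is assumed to vary like the others. With the replicate block it was 2, 2 and 0, and 0 members were called, with medians of 0.16, -0.035 and 0.11. Same-numbered libraries did not deviate together (r across genes of -0.070, -0.062 and 0.075 for the 3 pairs of groups). Each group gives only 1 difference between its libraries, so this cannot show whether they share more than a number. Summing rows of one symbol left the members' counts as they were, since each has 1 row. Depth does not limit the abundant members, while members under about 20 counts per library (Slc25a2, Slc25a18, Slc25a31 and Slc25a43) cannot show moderate changes.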

Other observations

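Replicates of the same treatment differed most, among tested members, in Slc25a24 for control (0.93 on the log2 CPM scale), Slc25a51 for CFZ (0.77) and Slc25a22 for CFZ_EA (0.63). Slc25a22 measured 6.77 and 5.28 FPKM in control, against 5.49 and 7.75 in CFZ and 7.32 and 4.61 in CFZ_EA, so replicates differed by more than the group means. Ucp3, an uncoupling protein of muscle, measured 14.8 and 6.42 FPKM in control, against 11.7 and 19.9 in CFZ and 14.5 and 7.39 in CFZ_EA, with the same replicate of each group higher as for Slc25a22. This likeness was seen in the values of 6 libraries and was not tested.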
